A study of Arabidopsis thaliana x Arabidopsis arenosa and Arabidopsis suecica with 6 samples.

Results

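The genes described here were listed with expression in every library of Arabidopsis hybrids that hold 3 genomes of A. arenosa and 1 of A. thaliana, and in no library of hybrids that hold 3 genomes of A. thaliana and 1 of A. arenosa. They were selected on measured values. A gene was taken if its total expression was above 0 in all 6 libraries of the first kind and was 0 or not listed in all 6 of the second kind. This left 73 of the 17798 genes in the deposited tables, after genes of the chloroplast and mitochondrion and the genes AT4G00650 and AT1G55060 were set aside. The difference between the 2 kinds of hybrid is therefore the selection itself, and it is given below as a description with no test.

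The study sequenced mRNA from rosette leaves of 6 kinds of allotetraploid, each with T genomes from A. thaliana and A genomes from A. arenosa. AATA came from A. arenosa and AlloF8, TAAA from AlloF8 and A. arenosa, TTTA from A. thaliana and AlloF8, and TATT from AlloF8 and A. thaliana, each an F1 with 3 libraries. AlloF8 is a resynthesized allotetraploid of both species in generation F8, and A. suecica is the natural allotetraploid of the same parentage; each has 2 libraries. AATA and TAAA together are called T1A3 and TTTA and TATT together T3A1, after the numbers of T and A genomes. All plants shared the stage before bolting, a cycle of 16 hours of light and 8 hours of dark, and 22 °C by day and 20 °C by night. The labels name the parents in order and do not say which was the mother. The pure parents A. thaliana and A. arenosa were not analysed here. All 4 F1 crosses share the AlloF8 parent, and nothing states that the replicate libraries are separate plants, so p-values measure only the spread between these libraries.

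In an allotetraploid most genes are present as 2 homoeologs, a T copy and an A copy, and the transcripts of both make up the total. When a genome is gained or lost, the total can follow the number of copies, or regulators from the other species can hold it at another level. If each copy keeps its output, a gene whose A copies carry nearly all transcripts has a total that follows the number of A genomes.

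The values are RPKM, reads scaled to transcript length and sequencing depth, and total expression is the sum of the T and A values. Across the 16 libraries no total above 0 was under 2 RPKM, so a gene not listed may lie anywhere below 2 RPKM and is not shown to be silent. None of the 73 genes has a row in the deposited tables of TTTA or TATT. Those tables hold no row at 0 in every replicate column, so this follows from the selection. The libraries of T1A3 list 14626 to 15448 genes, those of T3A1 list 13874 to 14861 and those of AlloF8 and A. suecica list 13767 to 15069. In all, 13 of 13 housekeeping genes were listed in all 12 F1 libraries, the lowest at 13.8 RPKM. A high total beside an unlisted one is not limited to low genes, since 50 genes had at least 100 RPKM in 1 F1 library and 0 in another.

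Most of the 73 genes were weakly expressed. Their mean total over the 6 T1A3 libraries ran from 2.24 to 57.9 RPKM with a median of 4.02 RPKM, against a median of 14.0 RPKM over the 13253 genes listed in all 6 T1A3 libraries. For 52 of the genes the mean was under 5 RPKM, and for 47 the lowest of the 6 libraries was under 3 RPKM. At the other end, 9 genes had a mean of at least 10 RPKM and 12 genes were at 5 RPKM or more in every T1A3 library. The set is 0.551% of the genes listed in all 6 T1A3 libraries. The opposite set, listed in all 6 T3A1 libraries and in none of T1A3, holds 21 genes, 0.164% of the 12824 genes listed throughout T3A1.

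**Figure D1:**
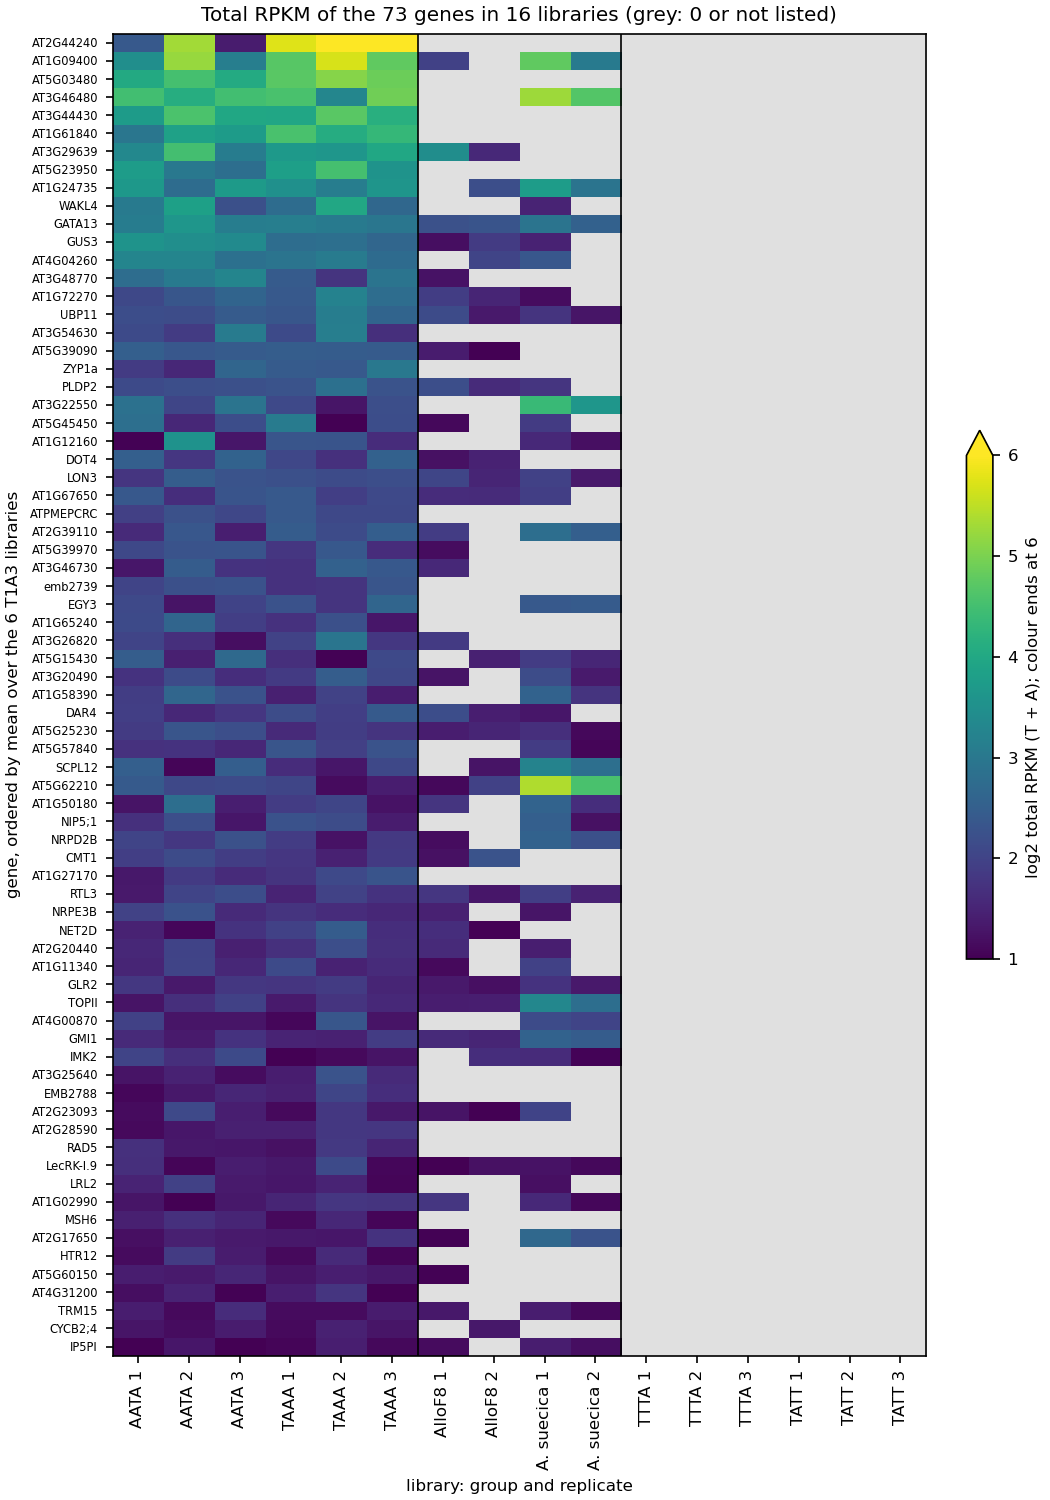
Total expression (log2 RPKM, T plus A) of each of the 73 genes (rows, highest T1A3 mean at the top) in the 16 libraries (columns), with grey where a gene was 0 or not listed. The 6 T1A3 columns are filled and the 6 T3A1 columns grey because the genes were selected that way; in AlloF8 and A. suecica 18 rows are grey throughout.

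Just outside the selection, 67 genes were listed in all 6 T1A3 libraries and in 1 T3A1 library, where the single value had a median of 2.51 RPKM and ran from 2.01 to 7.49 RPKM. A further 61 genes were listed in 5 T1A3 libraries and in no T3A1 library, with a median T1A3 mean of 3.31 RPKM and a highest mean of 26.1 RPKM. Membership changes strongly with the rule. Without replicate 2 of every F1 cross 235 genes qualify, without replicate 1 there are 114 and without replicate 3 there are 118. Each of these rules asks for fewer libraries, and every count includes the 73; why the count is highest without replicate 2 was not tested. Without replicate 2 of TTTA and TATT alone there are 182. With at least 4 RPKM required in every T1A3 library 16 genes are left.

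The 3 genes with the lowest T share in T1A3, all of them absent from AlloF8 and A. suecica, are shown with the 250 bases before their annotated start. The letters are the A. thaliana reference of RefSeq (TAIR10.1, on the coding strand, 5′ to 3′), not the A. arenosa homoeolog that carried most of the expression. The files themselves were made on TAIR9 and hold no coordinates, so the genes were found by their code. Capitals mark TATAAA, and none of the other motifs searched occurs in these windows. The genes were chosen for display after their values were seen.
AT2G44240: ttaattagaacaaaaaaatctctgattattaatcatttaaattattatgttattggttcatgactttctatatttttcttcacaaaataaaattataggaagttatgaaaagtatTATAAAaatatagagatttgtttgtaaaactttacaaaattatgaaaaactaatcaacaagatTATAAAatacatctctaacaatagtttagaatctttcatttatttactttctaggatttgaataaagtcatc
AT5G03480: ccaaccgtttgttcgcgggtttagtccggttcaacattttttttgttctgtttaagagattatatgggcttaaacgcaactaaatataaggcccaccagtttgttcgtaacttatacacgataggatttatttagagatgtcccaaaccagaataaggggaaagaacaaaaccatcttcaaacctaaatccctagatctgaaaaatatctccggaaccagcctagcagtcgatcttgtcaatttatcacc
AT1G61840: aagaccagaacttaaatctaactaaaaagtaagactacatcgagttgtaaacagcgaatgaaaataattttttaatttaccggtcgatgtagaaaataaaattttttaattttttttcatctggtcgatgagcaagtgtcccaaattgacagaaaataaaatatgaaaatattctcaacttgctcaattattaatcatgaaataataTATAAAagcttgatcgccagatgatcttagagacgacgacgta
These windows lie at chr2:18289574-18289823 on the plus strand, chr5:870856-871105 on the minus strand and chr1:22846997-22847246 on the plus strand, upstream of any annotated exon of the gene, and none overlaps another annotated gene. The motif TATAAA occurs in AT2G44240 and AT1G61840 and not in AT5G03480.

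Counted on both strands, 43.8% of the 73 windows and 47.3% of 27443 windows of the same length in the genome hold TATAAA. The W-box letters TTGACC or TTGACT, bound by WRKY factors, were in 34.2% against 28.4%. The as-1 core TGACG, bound by TGA factors and contained in no other motif searched, was in 27.4% against 18.6%. The G-box CACGTG was in 6.85% against 6.49%, and the GCC-box GCCGCC was in 0 of the 73 windows against 1.87%. These are matches of letters in the A. thaliana sequence and say nothing about binding.

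The highest T1A3 total belonged to AT2G44240, which encodes a DUF239 protein annotated as NEP-interacting (chromosome 2, 18289824 to 18292374). Its totals were 5.27, 39.8 and 2.60 RPKM in AATA and 53.8, 167 and 79.3 RPKM in TAAA, and it was listed in neither AlloF8 nor A. suecica. Every TAAA library lay above every AATA library. The T homoeolog of AT2G44240 gave 1.26% of its expression by the means over T1A3. In single libraries the T share ran from 1.91e-04% to 24.4%, with a median of 2.16%. In limma's test across 14070 genes with replicate number as a block, TAAA was higher than AATA by 3.32 on the log2 scale (SE 0.52, adjusted p = 0.0405). No gene passed the test of TAAA against AATA without the block, without replicate 1 or without replicate 3. That limit also holds for the differences between these crosses given below.

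AT5G03480, encodes an RNA-binding protein with an RRM domain. It had 16.4, 23.1 and 16.6 RPKM in AATA and 26.2, 34.0 and 29.3 RPKM in TAAA, and was unlisted in all 4 libraries of AlloF8 and A. suecica. The crosses did not overlap, and TAAA was higher by 0.67 (log2, SE 0.10, limma adjusted p = 0.0405). Its T share was 1.29%.

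AT1G61840, a cysteine- and histidine-rich C1-domain protein, had 7.78, 14.5 and 13.4 RPKM in AATA and 23.7, 17.2 and 20.1 RPKM in TAAA. Here too the crosses did not overlap, but the difference of 0.78 (log2, SE 0.28) had a limma adjusted p of 0.125. AT3G44430, of unknown function, had 13.5, 23.9 and 15.8 RPKM in AATA and 15.6, 26.5 and 17.7 RPKM in TAAA. AT5G23950, a protein with a calcium-dependent lipid-binding domain, had 13.6, 8.01 and 7.03 RPKM in AATA and 14.2, 23.0 and 11.9 RPKM in TAAA. None of these 3 genes was listed in AlloF8 or A. suecica.

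**Figure D2:**
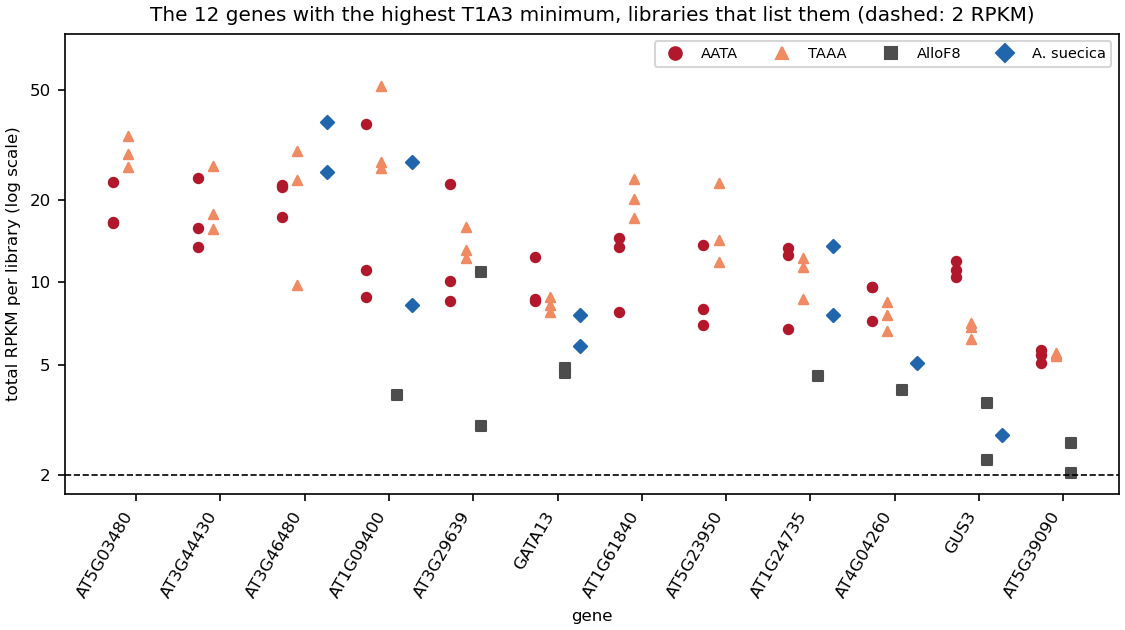
Total RPKM per library (log axis) of the 12 genes with the highest minimum over the 6 T1A3 libraries; each point is a library that lists the gene and the dashed line is the 2 RPKM listing limit. AT5G03480, AT3G44430, AT1G61840 and AT5G23950 have points in AATA and TAAA alone, while AT3G46480 has 38.4 and 25.2 RPKM in A. suecica and 9.80 to 30.1 RPKM in T1A3.

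Metabolic enzymes were the largest group with a known role, with 13 members, of which 9 were listed in at least 1 library of AlloF8 and 9 in at least 1 of A. suecica. Roles were assigned by hand after the members were known. AT1G09400, an FMN-linked oxidoreductase, had 11.1, 37.7 and 8.83 RPKM in AATA and 26.1, 51.8 and 27.4 RPKM in TAAA. It was listed at 3.89 RPKM in 1 AlloF8 library and at 27.3 and 8.31 RPKM in A. suecica. The highest value of each cross was that of replicate 2.

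AT3G46480, a 2-oxoglutarate and iron-dependent oxygenase, had 22.5, 17.3 and 22.3 RPKM in AATA and 23.5, 9.80 and 30.1 RPKM in TAAA. A. suecica had 38.4 and 25.2 RPKM and AlloF8 had none listed, so for this gene the 2 plants with equal numbers of T and A genomes stood apart. The S-adenosylmethionine-dependent methyltransferase AT1G24735 had 12.6, 6.79 and 13.3 RPKM in AATA and 11.4, 8.73 and 12.2 RPKM in TAAA. It was listed at 4.58 RPKM in 1 AlloF8 library and at 13.6 and 7.59 RPKM in A. suecica.

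GUS3, a glucuronidase, had 11.9, 11.1 and 10.5 RPKM in AATA and 6.87, 7.11 and 6.25 RPKM in TAAA. The crosses did not overlap, and TAAA was lower by a log2 difference of -0.69 (SE 0.10, limma adjusted p = 0.0399). The acyltransferase AT5G39090 was the steadiest member, at 5.10 to 5.69 RPKM in all 6 T1A3 libraries and at 2.60 and 2.03 RPKM in AlloF8. At the low end was IP5PI, an inositol polyphosphate 5-phosphatase, with a T1A3 mean of 2.24 RPKM, the lowest of the 73.

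The 8 genes of chromosomes and cell division were all low, with T1A3 means from 2.44 to 5.46 RPKM. HTR12, the centromeric histone H3, had 2.20, 3.63 and 2.60 RPKM in AATA and 2.20, 3.01 and 2.09 RPKM in TAAA. AT3G54630, a kinetochore protein, ran from 3.18 to 8.75 RPKM over T1A3. MSH6, a mismatch repair protein, had a T1A3 mean of 2.67 RPKM and the helicase RAD5, which acts in DNA repair, had 2.82 RPKM. These 4 genes were unlisted in AlloF8 and A. suecica.

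ZYP1a, a protein of the synaptonemal complex of meiotic chromosomes, was also confined to T1A3 among the libraries here, with 3.64, 2.94 and 6.20 RPKM in AATA and 5.43, 5.29 and 8.05 RPKM in TAAA. Its near-identical neighbour copy ZYP1b was listed in 5 of the 6 T1A3 libraries, at up to 4.74 RPKM, and in no other library. Reads may be shared between the copies, so their separate values are uncertain. In the same group, topoisomerase TOPII had 9.98 and 7.00 RPKM in A. suecica against 2.62 and 2.68 RPKM in AlloF8, and GMI1, a DNA repair protein, had 5.96 and 5.45 RPKM against 3.04 and 2.87 RPKM. For TOPII the difference of 1.49 (log2, SE 0.50) did not pass limma's test (adjusted p = 0.058). That of 0.85 for GMI1 (log2, SE 0.47) did not pass limma's test either (adjusted p = 0.45). The mitotic cyclin CYCB2;4 had a T1A3 mean of 2.44 RPKM and was listed in 1 AlloF8 library at 2.51 RPKM.

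A wider list of 25 measured genes of cell division, put together after these values were seen, holds 4 of the 73 genes (HTR12, CYCB2;4, TOPII and MSH6). Without these 4, whose listing the selection fixed, 69 of 126 possible values were listed in T1A3 and 67 of 126 in T3A1. Apart from the members, the list was thus listed about equally in both classes.

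RNA silencing and DNA methylation gave 4 members between 3.53 and 3.66 RPKM on average in T1A3. NRPD2B encodes a subunit of the plant RNA polymerases of silencing, NRPE3B another such subunit, CMT1 a chromomethylase and RTL3 an RNase III-like protein. RTL3 was listed in all 4 libraries of AlloF8 and A. suecica (2.45 to 3.83 RPKM), and NRPD2B reached 5.93 and 4.68 RPKM in A. suecica. CMT1 was listed in both AlloF8 libraries (2.33 and 4.83 RPKM) and in neither of A. suecica. NRPD2A, the close relative of NRPD2B, was listed in every library, at 2.92 to 5.01 RPKM in T1A3 and 3.75 to 5.32 RPKM in T3A1. NRPB3, the close relative of NRPE3B, had 10.07 to 14.5 RPKM in T1A3 and 11.0 to 14.6 RPKM in T3A1. The ranges of both relatives overlapped between the classes, and reads may be shared with them, so the members' own values are uncertain. A list of 21 measured silencing genes, again put together after the values were seen, holds these 4 members. Without them, 83 of 102 possible values were listed in T1A3 and 81 of 102 in T3A1.

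Immune receptors of the NLR type, which detect pathogen effectors inside the cell, gave 5 members with T1A3 means of 3.63 to 4.27 RPKM. Of all 91 genes listed throughout T1A3 whose product name holds "disease resistance", 3 were members (3.30%), against 0.551% of all genes. AT1G58390 had 3.76, 6.26 and 4.77 RPKM in AATA and 2.71, 3.97 and 2.63 RPKM in TAAA, and 5.97 and 3.37 RPKM in A. suecica, with none listed in AlloF8. Its close relative AT1G59218 was 0 or unlisted in T1A3 and A. suecica and was listed throughout T3A1 (2.55 to 4.57 RPKM) and in AlloF8 (4.44 and 2.22 RPKM). The libraries that listed one of the pair were thus those that did not list the other. How the deposited values divide reads between such relatives is not given in the sources used here.

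DAR4, an NLR with an added LIM-type domain, had 3.81, 2.92 and 3.48 RPKM in AATA and 4.47, 3.82 and 5.31 RPKM in TAAA. CSA1, its partner gene next to it on the chromosome, nearly shared its pattern in the F1 crosses. It had 3.48 to 5.81 RPKM in T1A3 and was listed in 1 T3A1 library at 2.01 RPKM. In AlloF8 DAR4 had 4.54 and 2.69 RPKM and CSA1 had 4.77 and 2.75 RPKM. In A. suecica DAR4 was listed in 1 library at 2.47 RPKM and CSA1 in neither. AT1G27170 had a T1A3 mean of 3.63 RPKM and no listing in AlloF8 or A. suecica.

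Kinases gave 6 members. WAKL4, a wall-associated kinase-like protein, had 8.25, 14.3 and 4.66 RPKM in AATA and 6.79, 16.1 and 6.34 RPKM in TAAA, with a single listing elsewhere, at 2.83 RPKM in A. suecica. Replicate 2 was the highest in both crosses. IMK2, a receptor-like kinase of meristems, had 4.06, 3.20 and 4.37 RPKM in AATA and 2.01, 2.20 and 2.40 RPKM in TAAA. The crosses did not overlap and TAAA was lower by a log2 difference of -0.69 (SE 0.12, limma adjusted p = 0.0426). LecRK-I.9, a receptor kinase for extracellular ATP, had a T1A3 mean of 2.82 RPKM, with 4.36 RPKM in the highest library, and 2.01 to 2.38 RPKM in AlloF8 and A. suecica.

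Among 3 transcription factors, GATA13 had the highest level, at 8.55, 12.4 and 8.70 RPKM in AATA and 8.85, 8.28 and 7.83 RPKM in TAAA. It was lower and listed in all 4 libraries of the other plants, at 4.69 and 4.89 RPKM in AlloF8 and 7.63 and 5.86 RPKM in A. suecica. LRL2, a bHLH factor of root hair growth, had a T1A3 mean of 2.78 RPKM.

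Channels and transporters gave 4 members, among them NIP5;1, a boric acid channel, with a T1A3 mean of 3.69 RPKM, 5.72 and 2.35 RPKM in A. suecica and none listed in AlloF8. Proteases and protein turnover gave 5, among them the deubiquitinating enzyme UBP11 and the Lon protease LON3, both listed in all 4 libraries of AlloF8 and A. suecica. RNA processing and ribosome assembly gave 7, of which 4 were listed in AlloF8 and 3 in A. suecica. The other 18 genes have another role or none known.

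**Figure D3:**
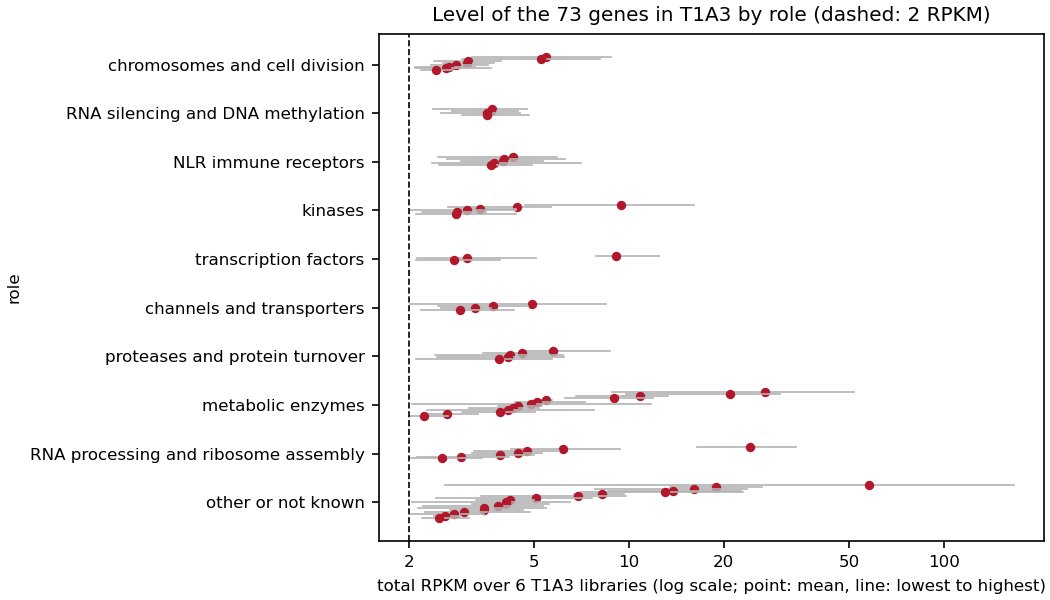
Total RPKM in T1A3 (log axis) of the 73 genes by role; points are means over the 6 libraries, lines run from the lowest to the highest library and the dashed line is the 2 RPKM listing limit. The 8 genes of chromosomes and cell division lie between 2.44 and 5.46 RPKM, while metabolic enzymes and genes with another or unknown role reach 27.1 and 57.9 RPKM.

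None of the 73 genes was in a list for salicylate and defence (27 measured genes), immune receptors and their kinases (16), senescence (7), jasmonate and wounding (17), abscisic acid, cold and drought (13), or housekeeping (13). None was among markers of root (3 of 14 in the tables), flower and pollen (1 of 12), seed (0 of 12), leaf epidermis (9 of 13) or leaf mesophyll (10 of 10). Members are 0.551% of the genes listed throughout T1A3, so lists this short would hold few or none. All genes of the housekeeping (13), immune receptor (16) and mesophyll (10) lists were listed in all 12 F1 libraries and could not be members. Nothing is read from these zeros. Summed mesophyll markers ran from 17150.5 to 40420 RPKM in T1A3 and from 22142 to 63404 RPKM in T3A1, and the epidermis markers from 14.7 to 27.9 RPKM and from 6.73 to 25.97 RPKM. By product name, members made up 7 of 777 kinase genes (0.901%), 2 of 232 transcription factor genes and 1 of 232 transporter genes, and 0 of 85 cytochrome P450 genes. The genes were spread over the chromosomes as 20, 11, 16, 10 and 16 on chromosomes 1 to 5, which is 0.495% to 0.603% of the genes listed throughout T1A3. No pair of members had 9 or fewer genes between them. Their coding length had a median of 1812 bases, against 1168.5 bases for all genes listed throughout T1A3. Long genes at a given RPKM collect more reads; the part of length in the selection was not tested.

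AlloF8 and A. suecica took no part in the selection, so the listing of the genes there was not fixed by it. Of the 73, 45 (61.6%) were listed in at least 1 AlloF8 library and 21 (28.8%) in both, against 99.6% and 96.1% of the 13253 genes listed throughout T1A3, which include the 73. In A. suecica 44 (60.3%) were listed in at least 1 library and 31 (42.5%) in both, against 96.3% and 92.2%. AlloF8 replicate 1 listed 39 of the 73 and replicate 2 listed 27, and A. suecica replicate 1 listed 44 and replicate 2 listed 31. All 4 libraries listed 10 of the genes.

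Genes of low expression can be compared among themselves. Of the 1657 genes listed throughout T1A3 with a mean under 5 RPKM, 85.7% were listed in both AlloF8 libraries and 77.1% in both of A. suecica. For the 52 members under 5 RPKM the values were 26.9% and 48.1%. The 73 genes had been chosen as unlisted in T3A1, whose crosses share the AlloF8 parent; the part of the listing limit in these differences was not tested.

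In the whole series 23 genes were listed in all 6 T1A3 libraries and in no library of AlloF8 or A. suecica, and 18 of them (78.3%) were among the 73. Besides AT2G44240, AT5G03480, AT3G44430, AT1G61840 and AT5G23950 they included ZYP1a, HTR12, MSH6, RAD5 and the pectinesterase ATPMEPCRC. Of the 53 genes that were in all 6 T1A3 libraries but in no AlloF8 library, 28 were among the 73. Among the 73, 10 genes (13.7%) were seen in A. suecica and not in AlloF8, and 11 (15.1%) the other way round. Of all 13253 genes these were 30 (0.226%) and 471 (3.55%).

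**Figure D4:**
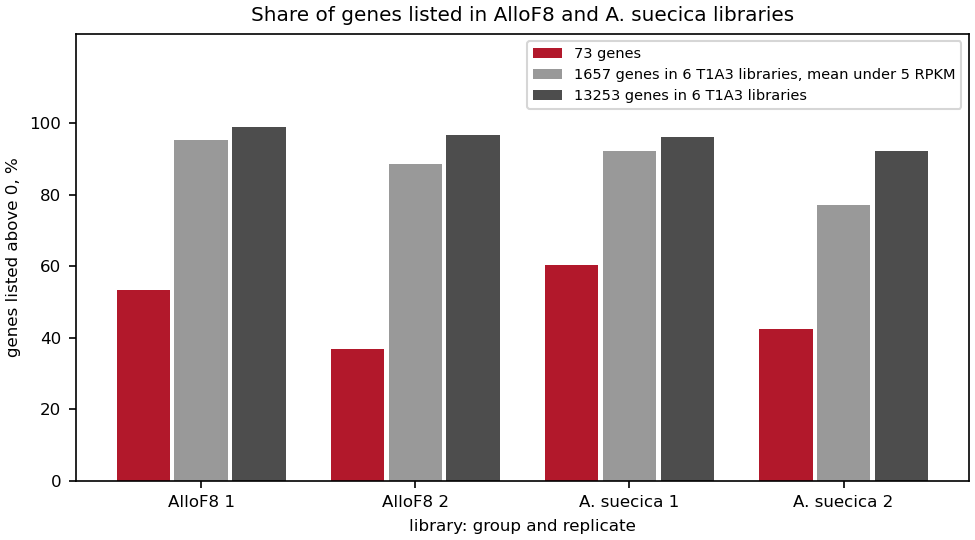
Percent of genes listed above 0 in each library of AlloF8 and A. suecica, for the 73 genes, for the 1657 genes listed throughout T1A3 with a mean under 5 RPKM and for all 13253 genes listed throughout T1A3. The 73 genes stand at 37.0% to 60.3% and both comparison sets at 77.1% to 98.9%.

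Between A. suecica and AlloF8, 10 of the 73 genes could be tested, those listed in all 4 libraries. With limma, 1 was higher in A. suecica, where 1.24% of 12611 genes were, and 0 were lower, where 2.95% were. At an unadjusted p under 0.05 there were 2 of the 10, and 13.6% of all genes. The gene was AT5G62210, an embryo-specific protein of the ATS3 family, with 42.4 and 23.6 RPKM in A. suecica and 2.17 and 3.94 RPKM in AlloF8. The difference was 3.22 (log2, SE 0.59, adjusted p = 7.64e-06), and both A. suecica libraries were above both of AlloF8 and above all T1A3 libraries (2.21 to 5.31 RPKM). It rests on few libraries: without AlloF8 replicate 1 the adjusted p was 0.063, and after the libraries were scaled to 1 median it was 0.0655. AT3G22550, a DUF581 protein, was higher in A. suecica (21.0 and 12.3 RPKM) than in any T1A3 library (2.42 to 7.63 RPKM) and unlisted in AlloF8, so it could not be tested.

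The T homoeolog gave little of the expression of these genes. In T1A3, where 1 genome in 4 is T (25%), the T share of the 73 genes had a median of 11.6% and ran from 1.26% to 55.9%, against a median of 23.2% over all 13253 genes. In 48 of the 73 (65.8%) the share was under 25% in all 6 libraries, against 33.1% of all genes. A low total with 3 T genomes is what selected them, and it favours genes with a low T share, so these values are a description. In AlloF8 20 of the 21 genes listed in both libraries were under 50%, with a median of 23.2% against 49.0% over all genes. In A. suecica 27 of 31 were under 50%, with a median of 26.01% against 49.5%. Neither plant was used by the selection, but a set chosen to favour a low T share can carry it there. AlloF8 is also a parent of all 4 F1 crosses, so these shares too are a description.

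Tested against the 1 to 3 copy ratio with limma, 56 of the 73 genes had another T to A ratio, where 73.3% of all genes did, a share near theirs. That form of the test adds 0.5 RPKM to each homoeolog and so moves low genes toward equal shares. With 0.5 RPKM taken into the copy ratio as well, 60 were lower, against 43.3% of all genes, and 4 were higher, against 28.2%. Among these were AT3G29639, of unknown function, AT1G58390 and AT5G62210. AT3G29639 was the exception among the highly expressed genes, with a T share of 55.9% and 8.58 to 22.7 RPKM in T1A3. In AlloF8 it was listed at 10.9 and 3.00 RPKM, and it was absent from A. suecica. The selection ties the count of lower ratios to the total in T3A1, so nothing is read from it.

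The T and A levels in T1A3 give a copy-scaled total for T3A1, the total that would be seen if every genome kept its output: 3 times the T value plus the A value divided by 3. Over the 12193 genes listed in all 12 F1 libraries, the log2 ratio of the observed T3A1 total to it had a median of 0.01 and ran from -0.54 at the 10th percentile to 0.53 at the 90th. For the 73 genes the copy-scaled total had a median of 2.60 RPKM and ran from 1.32 to 25.1 RPKM. It fell under the 2 RPKM limit for 11 genes, between 2 and 3 RPKM for 34 and at 3 RPKM or more for 28.

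Of the 28 genes at 3 RPKM or more, 12 were at 5 RPKM or more. The highest were AT3G29639 at 25.1 RPKM, AT2G44240 at 21.3 RPKM, AT1G09400 at 12.7 RPKM and AT3G44430 at 11.0 RPKM. Of all genes listed throughout T1A3, 26 had a copy-scaled total under 2 RPKM and 11 of these (42.3%) were among the 73. Between 2 and 3 RPKM it was 34 of 321 (10.6%), and at 3 RPKM or more 28 of 12906 (0.217%). A low copy-scaled total also means a low T1A3 total, and membership means a T3A1 total under the listing limit. These shares are therefore a description, and the part of copy number in them was not tested. The copy-scaled total for AlloF8, with 2 T and 2 A genomes, was at least 2 RPKM for 72 of the 73 genes. These include the 28 that no AlloF8 library listed, with a median of 3.68 RPKM and a highest value of 39.6 RPKM. The copy-scaled total is built from T1A3 values that the selection required to be listed. Nothing is therefore read from these AlloF8 counts.

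**Figure D5:**
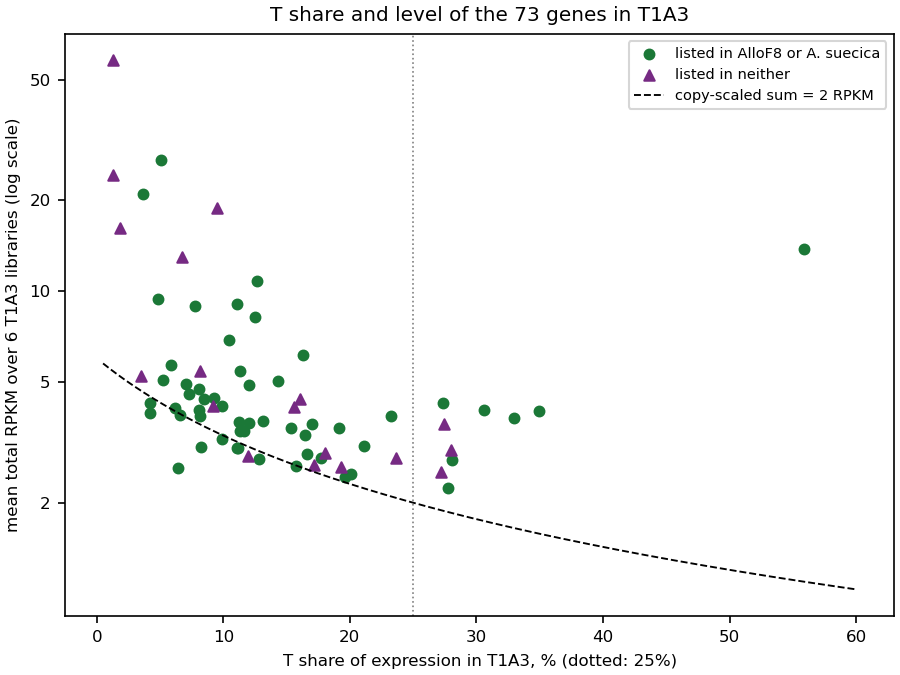
T share of expression in T1A3 (percent, from mean T and mean total) against mean total RPKM over the 6 T1A3 libraries (log axis) for the 73 genes; triangles mark the 18 genes listed in neither AlloF8 nor A. suecica. The dashed curve is where the copy-scaled T3A1 total equals 2 RPKM, with 11 genes under it; the dotted line is the 25% copy share, with most genes to its left.

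The 2 T1A3 crosses differ in which parent is named first. With limma and replicate number as a block, 2 of the 73 genes were higher in TAAA, where 5.56% of all genes were, and 4 were lower, where 6.68% were, shares no larger than those of all genes. The higher ones were AT2G44240 and AT5G03480, and the lower ones were GUS3, IMK2, AT3G22550 (-0.67, SE 0.10, adjusted p = 0.0392) and AT1G58390 (-0.58, SE 0.12, adjusted p = 0.048). For AT3G22550 and AT1G58390 the crosses overlapped, and each TAAA library was below the AATA library of the same number. Without the block, without replicate 1, or without replicate 3, none of the 73 passed. Nor did any of all the 14414, 13627 and 13440 genes tested in those settings. Without replicate 2, 17 of the 73 passed (23.3%), where 38.0% of all genes did. At an unadjusted p under 0.05 there were 23 (31.5%), against 37.1% of all genes.

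Replicate 2 of the F1 crosses differed from replicates 1 and 3 over many genes. Within T1A3, 7 of them were higher in replicate 2 by limma, where 9.13% of all genes were, and 5 were lower, where 8.71% were, so the shares were near those of all genes. The higher ones were AT1G09400 (1.41, SE 0.26, adjusted p = 0.0349), WAKL4 (1.19, SE 0.18, adjusted p = 0.0255), AT3G44430, the NLR gene AT3G46730, the transporter AT2G23093, the aspartyl protease AT1G65240 and AT2G20440, a Rab GTPase-activating protein. The lower ones were the oligopeptide transporter AT5G45450 (-1.13, SE 0.18, adjusted p = 0.0269), AT5G15430, AT3G22550, the protease homologue EGY3 and DOT4, a pentatricopeptide repeat protein. The log2 differences of these 12 had sizes from 0.45 to 1.41. Without replicate 1, or without replicate 3, none of the 12 passed, where 0 of all 13627 and 1 of all 13440 genes tested did. What sets replicate 2 apart cannot be told from the labels.

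In the opposite set of 21 genes, the T3A1 mean had a median of 3.39 RPKM and the T share in T3A1 a median of 90.4%. At least 1 AlloF8 library listed 18 of them and at least 1 A. suecica library 12. AT1G59218, the relative of AT1G58390, is one of the 21.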

How the data were processed

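The members and gene lists were chosen with earlier results of these data known. The authors deposited RPKM per transcript for the T and A homoeologs, made on TAIR9 per the submitters' processing notes; the aligner, the assignment of reads to homoeologs and the 2 RPKM limit are not explained in the sources used here. Libraries were made from poly(A) RNA and read on a Genome Analyzer, per the labels. Depth per library is unknown, so no counting interval is given.

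Each gene was its transcript with the highest mean total; the sum over transcripts gave the same 73 genes. Symbols, coding lengths and the sequences came from TAIR10.1, in which 99.5% of gene codes were found. Tests used limma 3.58.1 in R 4.3.3 on log2(RPKM + 0.5), with unlisted values missing, at least 2 listed values per group, a mean of at least 1 RPKM, an intensity trend and two-sided p-values with Benjamini-Hochberg adjustment at 0.05 over all genes tested. A log2 difference on this scale understates the change of low genes. The fit was tested on simulated data. There the homoeolog test as designed called unchanged low genes, so a form with 0.5 RPKM in both parts of the copy ratio was added and both are given. Replicate numbers were used as a block within the F1 crosses because same-numbered AATA and TAAA libraries deviated together (correlations 0.46, 0.56 and 0.61). The values for A. suecica and AlloF8 used no block. Alternatives changed the pseudocount, the minimum mean, the scaling, the treatment of unlisted values, the block and the libraries used. Named genes were the 20 with the highest T1A3 minimum, those past a test (up to 10 per direction) and the 5 with the lowest and the 5 with the highest T share. Other genes were named after their values were seen, to show the role groups.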

Additional observations from a re-analysis of the deposited data

Results flagged for a closer look

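For 4 of the 45 named genes checked, 1 of the 6 T1A3 libraries lay far from the others, by Dixon's criterion. GATA13 had 12.4 RPKM in AATA replicate 2, where the next library had 8.85 RPKM. PLDP2, a phospholipase D, had 7.23 RPKM in TAAA replicate 2 against 4.88 RPKM in the next. AT3G25640, a MIZU-KUSSEI-like protein, had 4.83 RPKM there against 3.01 RPKM, and the esterase AT3G26820 had 7.71 RPKM there against 4.09 RPKM. All 4 were high values in a replicate 2 library. Chance alone flags about 1 group in 20.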

How the results depend on the processing

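The number of genes selected was 114 to 235 when 1 replicate number was left out, 269 when T3A1 totals under 3 RPKM were allowed, 16 at 4 RPKM or more in T1A3, and 182 when replicate 2 of TTTA and TATT was not used, an alternative chosen after seeing the data. At a minimum mean of 5 RPKM 21 of the 73 genes are tested. All 21 kept a shifted homoeolog ratio (56 before), where 73.7% of all genes had one. The selection favours a low T share, so nothing is read from that contrast. The 4 of the 21 called in replicate 2 (12 before) kept their call, where 20.5% of all genes were called. The 6 that differed between TAAA and AATA became 0 with unlisted values as 0 and 0 with no replicate block. With 1 replicate left out the count was 0 to 17. Of all genes, 0 of 15739 passed with unlisted values as 0 and 0 of 14414 with no block. With replicate 1, 2 or 3 left out, 0 of 13627, 5233 of 13759 and 0 of 13440 genes passed. The 12 that differed in replicate 2 became 4 with unlisted values as 0, where 1892 of all 15739 genes passed. They became 0 without replicate 1 or 3, where 0 of 13627 and 1 of 13440 genes passed. The 1 that differed between A. suecica and AlloF8 became 0 after scaling to 1 median, where 8 of all 12611 genes passed. It became 3 with unlisted values as 0 (360 of all 15838 genes) and 2 with the replicate block (617 of all 12611). For those plants the deviations of same-numbered libraries had a correlation of 0.27, which with 2 replicates is a single value for both numbers. Whether those libraries belong in pairs was not tested. Among single genes, 468 alternatives kept the call, 82 lost it and 5 turned the direction, all in the homoeolog ratio. These were AT2G20440 at 0.070, AT3G22550 at 0.017 and IMK2 at 0.138 (log2) with a pseudocount of 1, and SCPL12 at -0.014 in the added form and -0.071 to 0.737 with 1 replicate left out. The cause was not tested. The ratio could not be given with unlisted values as 0. Most members lie within a few RPKM of the 2 RPKM limit, so absence from T3A1 is an upper limit on level and not a measured 0.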
